A study of Mus musculus with 6 samples.

Results

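Peritubular myoid cells are flattened, contractile smooth muscle-like cells that wrap the seminiferous tubules, and endothelial cells line the vessels that run between the tubules. The account below concerns 10 genes that mark these cells, chosen by symbol: 6 of smooth muscle (Acta2, Myh11, Tagln, Cnn1, Actg2 and Des) and 4 of endothelium (Pecam1, Cdh5, Kdr and Vwf). All 10 were found among the 24411 genes of the deposited files, and all 10 were among the 17110 that passed the filter on low counts. RNA came from frozen whole testes of C57BL/6 mice, a standard inbred strain. The genotype label of 3 libraries is MRP5-/- and MRP9-/- (labelled DKO, for double knockout) and that of the other 3 is Wildtype (labelled WT). MRP5 and MRP9 are ABC-family membrane transporters encoded by Abcc5 and Abcc12. The animals are described as age matched, with no age stated, and neither the design of the alleles nor the colony that supplied the wildtype mice is given in the sources used here.

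As background, smooth muscle cells contract when myosin heads pull on actin filaments. Their contractile genes are switched on together by serum response factor (encoded by Srf) with partners of the myocardin family, which bind a short A/T-rich element called the CArG box. Rodent myoid cells carry alpha smooth muscle actin and desmin, and they contract to move immobile sperm along the tubule. Vascular smooth muscle and pericytes share most of these genes, so the 6 genes do not separate myoid cells from vessel walls. Endothelial cells are held together by VE-cadherin and PECAM-1, respond to VEGF through its receptor KDR, and store von Willebrand factor for clotting.

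Groups are named by their labels because transcript of both targeted genes was present in every library. Abcc12 was at 79.0 ± 5.56 CPM (read counts scaled to library depth by TMM, a normalisation that trims extreme genes) in libraries labelled DKO and 160.3 ± 3.93 in those labelled WT, and Abcc5 was at 16.8 ± 0.190 and 11.4 ± 0.898 (SD, n = 3 each), so Abcc5 was higher in libraries labelled DKO, against the label (log2 fold change 0.56, no overlap; edgeR adjusted p = 0.0225). Expected counts summed to 42673615 to 67131103 in libraries labelled DKO and to 26753721 to 31745969 in those labelled WT. Their mean fragment lengths were 275.5 to 317.4 and 230.4 to 257.9 bases. The groups were separate in both quantities (two-sided exact permutation test, p = 0.1 for each, as low as a design of 3 against 3 can go), so depth, fragment length and genotype cannot be told apart. WT replicate 2 had the highest summed TPM of smooth muscle, Leydig, Sertoli and macrophage markers, as shown with the marker lists further on. Replicates are numbered in order of deposition, and that they are separate animals rests on the design text and labels. P-values measure the spread between these libraries.

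Actin genes resemble each other closely, so the coding sequences of Acta2 and Actg2 are compared first, to show how far fragments of each can be told apart. Acta2 encodes the alpha and Actg2 the gamma actin of smooth muscle. In GENCODE M21 transcripts carrying the RefSeq accessions of the files, the longest open reading frames were 1134 and 1131 bases and matched at 84.4% of 1131 aligned bases. The longest identical run was 29 bases, and the transcripts shared 0 stretches of 50 bases. The last 90 coding bases of each, stop codon included, are printed 5′ to 3′, with the 16 bases that differ in capitals.
Acta2: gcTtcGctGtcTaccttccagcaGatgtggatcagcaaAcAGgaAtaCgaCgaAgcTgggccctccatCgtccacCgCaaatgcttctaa
Actg2: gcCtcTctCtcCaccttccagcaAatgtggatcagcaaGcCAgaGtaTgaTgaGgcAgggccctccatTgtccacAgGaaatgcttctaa
The differences are unevenly spread, with identical runs between them. Acta2 shared 7 stretches of 50 bases with Actg1, a cytoplasmic actin of most cells. The expected counts of all 10 genes were whole numbers in all 6 libraries, so none was split fractionally with another gene.

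The RefSeq table for GRCm38.p6, the same assembly as the mm10 build named in the submitters' processing notes, places Acta2 at chr19:34240336-34255585 and Myh11 at chr16:14194527-14292188, both on the minus strand. Tagln lies at chr9:45929628-45936058 on the minus strand. Cnn1 is at chr9:22099221-22109221 on the plus strand, Actg2 at chr6:83512909-83536251 on the minus strand and Des at chr1:75360292-75368579 on the plus strand. The endothelial genes are Pecam1 at chr11:106654213-106715281 and Kdr at chr5:75932827-75979072 on the minus strand, with Cdh5 at chr8:104101613-104144504 and Vwf at chr6:125552948-125686679 on the plus strand. In GENCODE M21, exons of 8 of the 10 overlap no exon of another gene. Exons of Tagln share 1241 bases with the antisense gene Gm48529 and 108 bases with Pcsk7, both on the plus strand, and exons of Des share 220 bases with the antisense gene Gm15179. Strand handling is not stated, so fragments from these overlaps cannot be assigned by strand.

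Levels were compared between genes in TPM, a relative abundance that accounts for transcript length. Actg2 stood far above the other 9 genes. It was at 357.8, 354.7 and 352.7 TPM in WT replicates 1, 2 and 3 (355.1 ± 2.55, SD, n = 3) and at 293.5, 329.3 and 306.4 TPM in DKO replicates 1, 2 and 3 (309.7 ± 18.1). Acta2, the classical myoid marker, was at 43.0 ± 8.96 TPM in WT and 33.1 ± 3.95 in DKO. The ratio of Actg2 to Acta2 ranged from 6.79 in WT replicate 2 to 10.8 in DKO replicate 2. As background, smooth muscle gamma actin is known to be transcribed in mouse haploid germ cells as well as in smooth muscle, and which cells its transcript came from here was not tested. Because of its level, sums of the smooth muscle genes are given without it.

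Below Actg2, the order of mean TPM in WT libraries was Acta2, Tagln (29.5 ± 5.54), Myh11 (12.0 ± 1.72), Cnn1 (4.45 ± 1.0), Cdh5 (3.96 ± 0.333), Des (3.76 ± 0.740), Vwf (3.56 ± 0.451), Pecam1 (2.10 ± 0.4997) and Kdr (1.18 ± 0.276; SD, n = 3 each). Ranges over the WT libraries overlapped between the neighbours Acta2 and Tagln, Cnn1 and Cdh5, Cdh5 and Des, and Des and Vwf. Within each library, however, Acta2 was above Tagln (34.4 against 24.3, 52.3 against 35.3 and 42.5 against 28.8 TPM in WT replicates 1, 2 and 3). For the other overlapping pairs the order changed between WT libraries. All remaining neighbours were separate. Every endothelial gene was thus under 5 TPM in each library (at most 4.24, for Cdh5 in WT replicate 2). All 10 genes were detected in all 6 libraries, with 84 expected counts as the smallest value of any of them in any library.

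**Figure D1:**
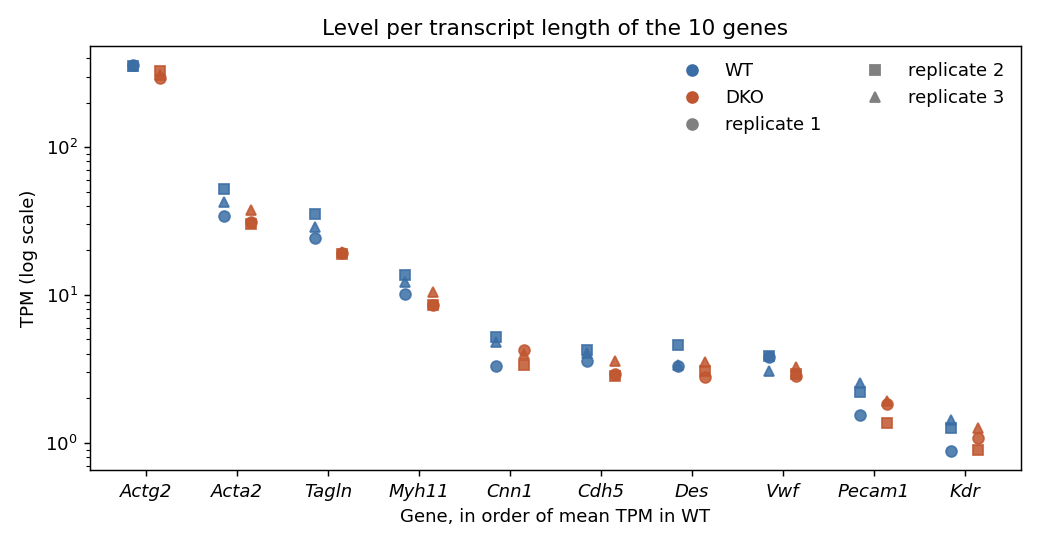
Level of each gene in TPM (log axis) in the 3 WT and 3 DKO libraries, ordered by mean TPM in WT; each point is a library. Actg2 lies at 293.5 to 357.8 TPM, above Acta2 at 30.4 to 52.3 TPM, and Kdr is lowest at 0.880 to 1.42 TPM.

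The comparison asks whether genes of the tubule wall and the vessels differ between libraries labelled DKO and WT. All 10 genes had a log2 fold change below 0 (labelled DKO over labelled WT), from -0.58 for Tagln to -0.07 for Kdr, with a median of -0.22. Over all 17110 tested genes the median was -0.0042, and 50.7% were below 0. Only Tagln passed the test (edgeR quasi-likelihood test, p adjusted over all tested genes, called when under 0.05), so 1 of 10 genes was called lower and 0 higher, where 5.10% of tested genes were called lower, 5.75% higher and 10.8% in either direction. At an unadjusted p under 0.05 there were 5 of 10, against 31.7% of tested genes. In whole tissue, fewer cells of a type and less RNA per cell cannot be told apart.

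Tagln encodes transgelin (SM22-alpha), an actin-binding protein of smooth muscle. It was at 22.4, 30.2 and 25.7 CPM in WT replicates 1, 2 and 3, and at 17.5, 17.9 and 17.2 CPM in DKO replicates 1, 2 and 3. The 3 DKO libraries were nearly level with each other and all lay below the lowest WT library. The mean was 17.6 ± 0.333 CPM against 26.1 ± 3.89 (SD over 3 libraries), so DKO stood at 67.2% of WT, with a log2 fold change of -0.58 (SE 0.10) that passed the test (edgeR adjusted p = 0.0237). The groups were also separate in TPM, at 19.0 to 19.6 against 24.3 to 35.3. The call was lost without DKO replicate 1 (edgeR adjusted p = 0.0996), WT replicate 2 (0.0706) or WT replicate 3 (0.0993), with log2 fold changes of -0.59, -0.47 and -0.59. Those fits called 11, 13 and 7 genes, against 1856 with all libraries, so the loss was not particular to Tagln. Pcsk7, the protease gene whose exons meet those of Tagln, was at 46.1 ± 1.99 CPM in DKO and 49.8 ± 3.61 in WT (SD, n = 3 each; log2 fold change -0.11; edgeR adjusted p = 0.338), and the part of the overlap in the Tagln difference was not tested.

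Myh11 encodes the smooth muscle myosin heavy chain, the motor of contraction. It was at 44.7, 54.4 and 51.9 CPM in WT replicates 1, 2 and 3, and at 38.2, 39.0 and 44.6 CPM in DKO replicates 1, 2 and 3. The groups were separated by a narrow margin, between DKO replicate 3 and WT replicate 1, and in TPM they overlapped. The log2 fold change was -0.31 (SE 0.09), just over the threshold (edgeR adjusted p = 0.0514). Over the 2 Myh11 transcripts that the files list, the abundance-weighted length was 6598 to 6601 bases in all 6 libraries.

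Acta2 was at 55.2, 77.1 and 65.9 CPM in WT replicates 1, 2 and 3, and at 50.4, 50.4 and 58.1 CPM in DKO replicates 1, 2 and 3. DKO replicate 3 lay above WT replicate 1, so the groups overlapped. The log2 fold change was -0.32 (SE 0.11; edgeR adjusted p = 0.0781), and without WT replicate 2 it was -0.20 (adjusted p = 0.284). Both Acta2 and Myh11 passed the test without DKO replicate 3 (adjusted p = 0.0372 and 0.0181) and without WT replicate 1 (0.0281 and 0.0288). Over all genes those fits called 3029 and 2037, against 1856 with all libraries.

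Cnn1 encodes calponin, which restrains actomyosin activity, and Des encodes desmin, the muscle intermediate filament. Cnn1 was at 3.98, 5.79 and 5.56 CPM in WT replicates 1, 2 and 3 and at 5.02, 4.16 and 4.57 CPM in DKO replicates 1, 2 and 3. Des was at 6.41, 8.24 and 6.33 CPM in WT and at 5.50, 6.18 and 6.56 CPM in DKO, in the same order. Both genes overlapped between the groups, and Cnn1 had its lowest value of all in WT replicate 1. Their log2 fold changes were -0.16 (SE 0.15; edgeR adjusted p = 0.485) and -0.20 (SE 0.13; adjusted p = 0.308).

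Actg2 was at 262.8, 242.6 and 251.6 CPM in WT replicates 1, 2 and 3, and at 209.3, 245.5 and 214.2 CPM in DKO replicates 1, 2 and 3. Its highest WT value was in replicate 1 and its lowest in replicate 2, the reverse of Acta2, Myh11, Tagln and Cnn1, which were lowest in WT replicate 1 and highest in replicate 2. The log2 fold change was -0.18 (SE 0.08; edgeR adjusted p = 0.147). In TPM the groups did not overlap, yet limma on log2(TPM + 1) gave a difference of -0.20 that did not pass either (adjusted p = 0.0836).

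**Figure D2:**
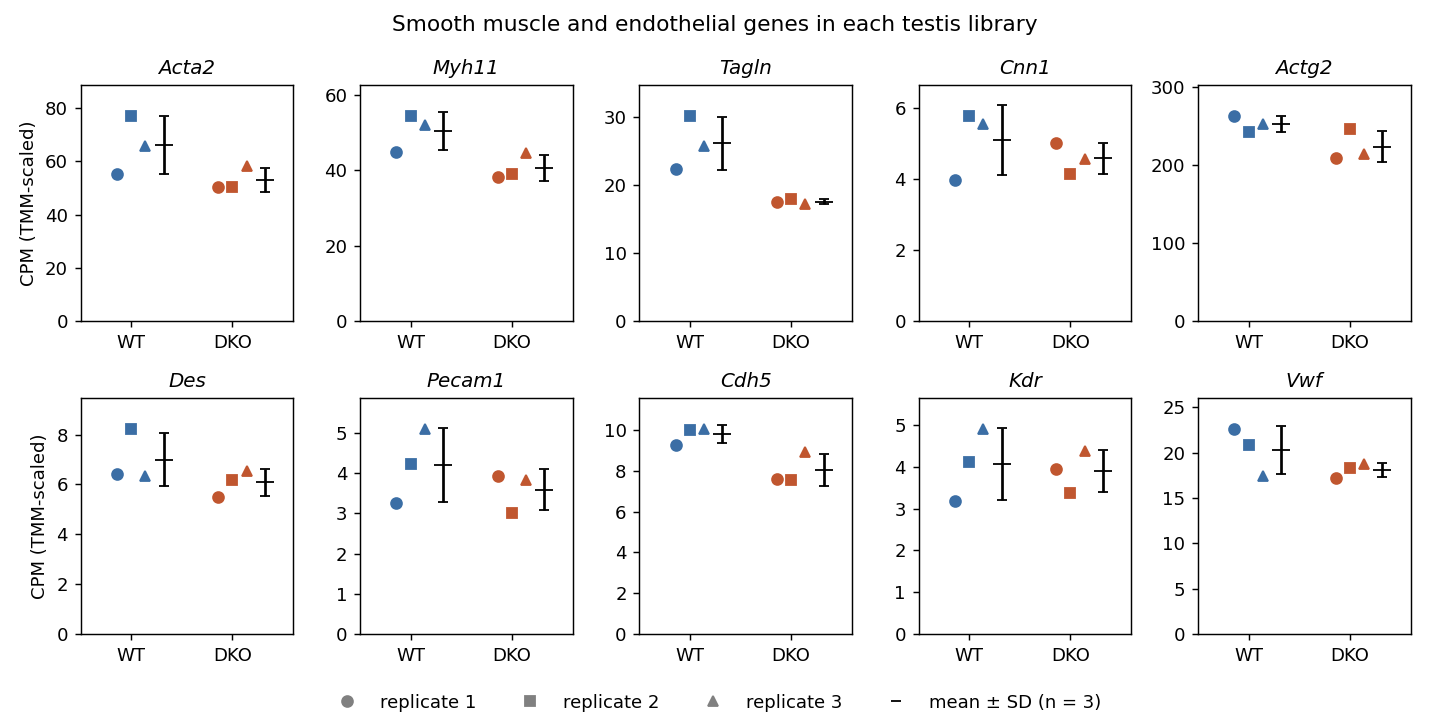
TMM-scaled CPM of each gene (linear axes from 0) in the 3 WT and 3 DKO libraries, with symbols for the replicates and black marks for the mean ± SD (n = 3). Tagln, Myh11 and Cdh5 are separate between the groups, and WT replicate 2 is the highest library for Acta2, Myh11, Tagln, Cnn1 and Des.

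Among the endothelial genes, none passed the test (edgeR, 0 of 4 called; 1 of 4 at an unadjusted p under 0.05, and 0 of 4 called by DESeq2). Over all tested genes, edgeR called 10.8%, 31.7% had an unadjusted p under 0.05, and DESeq2 called 2923 of 13752. With 4 genes, such counts cannot be told from these shares. Cdh5, which encodes VE-cadherin of the endothelial junction, had the smallest p of the 4. It was at 9.30, 10.03 and 10.1 CPM in WT replicates 1, 2 and 3, and at 7.62, 7.57 and 8.96 CPM in DKO replicates 1, 2 and 3. All DKO libraries were below all WT libraries in CPM, while in TPM the highest DKO and the lowest WT library were both at 3.59. The log2 fold change was -0.28 (SE 0.10; edgeR adjusted p = 0.0908), and it passed the threshold without DKO replicate 3 (adjusted p = 0.0406). That fit called 3029 genes, against 1856 with all libraries.

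Vwf, which encodes the clotting protein stored by endothelium, was at 22.7, 20.8 and 17.4 CPM in WT replicates 1, 2 and 3, and at 17.2, 18.3 and 18.7 CPM in DKO replicates 1, 2 and 3. WT replicate 3 fell within the DKO range, and the log2 fold change was -0.17 (SE 0.10; edgeR adjusted p = 0.291). Its order within WT was the reverse of that of the other 3 endothelial genes, which were lowest in WT replicate 1 and highest in replicate 3.

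Pecam1 encodes the adhesion molecule CD31. It was at 3.26, 4.24 and 5.11 CPM in WT replicates 1, 2 and 3, and at 3.92, 2.999 and 3.83 CPM in DKO replicates 1, 2 and 3. Kdr encodes VEGF receptor 2. It was at 3.19, 4.12 and 4.91 CPM in WT and 3.94, 3.36 and 4.37 CPM in DKO, in the same order. For both genes the WT libraries spread more widely than the group means differed. The log2 fold changes were -0.23 for Pecam1 (SE 0.17; edgeR adjusted p = 0.385) and -0.07 for Kdr (SE 0.17; adjusted p = 0.820), and Kdr turned to 0.0167 without DKO replicate 2 and 0.0886 without WT replicate 3.

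In CPM, 3 of the 10 genes (Tagln, Myh11 and Cdh5) were lower in every DKO library than in any WT library, where 17.5% of tested genes were and 35.9% were separate in either direction. The highest library was a WT library for all 10 genes: replicate 2 for 5 genes, replicate 3 for 3 and replicate 1 for 2. The lowest was a DKO library for 8 genes and WT replicate 1 for Cnn1 and Kdr. When the mean fragment length of the library was added to the fit, no member was called, and Acta2, Des and Kdr turned to 0.0743, 0.20 and 0.15. Myh11 moved from -0.31 to -0.0058 and Cdh5 from -0.28 to -0.0601. Of all tested genes, 1 was called in that fit, and 545 had an unadjusted p under 0.05.

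**Figure D3:**
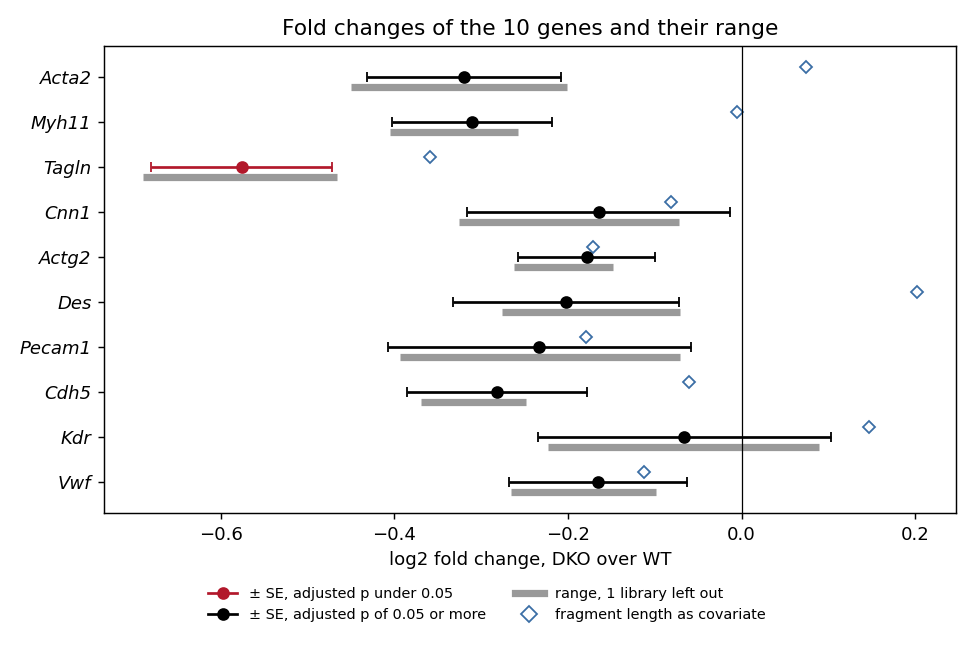
Log2 fold change of each gene (labelled DKO over labelled WT) with its SE, the range over the 6 fits that each leave out 1 library (grey) and the value with fragment length as a covariate (open diamonds). Tagln, in red, is the gene called at an adjusted p under 0.05, and the open diamonds of Acta2, Des and Kdr lie above 0.

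Other genes of the contractile apparatus were taken from a list of 12. Of these, 10 had a log2 fold change below 0, 2 fell and 0 rose by the test, with a median of -0.19. For this list and those that follow, 5.10% of all tested genes were called lower and 5.75% higher. At an unadjusted p under 0.05 the share was 31.7%. Myl9, the regulatory light chain of smooth muscle myosin, was at 42.2 ± 3.75 CPM in DKO and 63.1 ± 6.72 in WT (SD over 3 libraries). Its log2 fold change was -0.58, with an SE of 0.09 and an edgeR adjusted p of 0.0225. Tpm2, a tropomyosin that lies along the actin filament, was at 12.1 ± 0.886 CPM in DKO and 16.7 ± 2.93 in WT (log2 fold change -0.47, SE 0.12; adjusted p = 0.0387). Neither overlapped between the groups. Cald1, encoding caldesmon, was among the 2 on the other side, at 0.24 (SE 0.13; adjusted p = 0.227).

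Of 9 regulators of smooth muscle genes, Srf fell and none rose, with a median log2 fold change of 0.03. Srf, which encodes serum response factor, was at 38.5 CPM in DKO and 49.95 in WT on average, without overlap (log2 fold change -0.37, SE 0.08; edgeR adjusted p = 0.0263). Its cofactor gene Mrtfa, listed under the older symbol Mkl1, did not pass (-0.19; adjusted p = 0.102). Klf4, the most abundant of the 9 in TPM, did not pass either and was above 0 (0.21; adjusted p = 0.119). Of the 9 genes, 4 were below 0 and 5 above. Myocd, encoding myocardin, was under 0.1 TPM on average in both groups (0.0867 in DKO and 0.0667 in WT).

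Since serum response factor binds the CArG box, the promoter windows of RefSeq (GRCm38.p6) were searched for it on both strands, as 2 C, 6 A or T, then 2 G. Windows were found for 4 of the 10 genes (Acta2, Cnn1, Des and Kdr), and the search covered the 250 bases before the start site that each window uses. That site lies 212 bases inside the RefSeq gene span printed above for Acta2, 617 for Kdr and 32 for Cnn1, and at its edge for Des, so most of the Acta2 and all of the Kdr window lie within their genes. None of the 4 held an exact CArG box, which 1.47% of the 32851 windows held. With exactly 1 G or C among the 6 central bases, a setting chosen after the exact search, Acta2 held 2 sites and Kdr 1. Over all windows, 7.24% held at least 1 and 0.548% held 2 or more. The sites are shown in capitals within 30 bases of the minus strand, 84 and 34 bases before the window's start site for Acta2 (chr19:34255438-34255467 and chr19:34255388-34255417) and 236 bases before it for Kdr (chr5:75978672-75978701).
Acta2 distal: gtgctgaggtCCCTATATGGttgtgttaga
Acta2 proximal: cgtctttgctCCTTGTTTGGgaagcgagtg
Kdr: gtctcagagcCCATTACTGGctacatttta
In GENCODE M21, exons of Acta2 cover 217 of the 250 bases of its window, and those of Kdr 3. The motif GGAA, the core of ETS-factor sites, occurred in all 4 windows and in 93.4% of all windows.

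For the vessel wall, 0 of 8 tested pericyte and mural genes were called by edgeR (2 at an unadjusted p under 0.05), with a median log2 fold change of -0.20. Kcnj8, a potassium channel subunit of pericytes, was at -0.68 (SE 0.23; edgeR adjusted p = 0.0750), Ndufa4l2, the most abundant of the list in TPM, at -0.22 (0.0974) and Pdgfrb, the PDGF receptor of mural cells, at -0.25 (0.176). Of 14 genes of peritubular and interstitial signalling, 1 fell and 0 rose (4 at an unadjusted p under 0.05), with a median of -0.22. The gene that fell was Dhh, encoding the Sertoli-cell ligand desert hedgehog, which acts on myoid and Leydig cells (19.2 against 25.8 CPM on average, no overlap; log2 fold change -0.42, SE 0.09; adjusted p = 0.0269). Its receptor gene Ptch1 was at 0.08 (adjusted p = 0.795) and the hedgehog-responsive Gli1 at -0.42 (0.107). Cxcl12, of the same list, was just over the threshold at -0.55 (SE 0.16; 0.0515), with overlap.

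Of 22 further endothelial genes, 0 were called by edgeR (4 at an unadjusted p under 0.05), 12 were below 0 and 10 above, and the median log2 fold change was -0.06. The 3 with the smallest p were Rasip1 at -0.31 (edgeR adjusted p = 0.0754), Ecscr at -0.59 (0.101) and the transcription factor gene Sox18 at -0.48 (0.102). The fourth, Clec14a, was above 0, at 0.65 (SE 0.27; 0.120), the furthest from 0 of these 4, at 0.370 TPM on average in DKO and 0.247 in WT, with overlap. Cd34 was the most abundant by mean TPM in WT (8.94) and was at 0.02 (0.905), while Sox17 was the most abundant in DKO (8.91) and was at 0.15 (0.258). In the same list the angiopoietin receptor gene Tek was at -0.04 (0.886). Of 13 tested angiogenic ligands and partners, 0 were called (3 at an unadjusted p under 0.05), with a median of -0.21. Apln, the ligand apelin, was at -0.40 (0.0808), Notch1 at -0.29 (0.0974), and Figf (VEGF-D) at -0.77 (0.127). Jag1, the most abundant of them, was at 0.02 (0.907), and Vegfa, the main ligand of KDR, was at -0.08 (0.734).

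Some markers of the other cells in the testis also differed between the groups, and their part in the differences of the 10 genes was not tested. Summed TPM of the smooth muscle members without Actg2 was 66.1, 64.3 and 75.2 in DKO replicates 1, 2 and 3, and 75.4, 111.0 and 91.7 in WT replicates 1, 2 and 3. The endothelial sum was 8.03 to 10.03 TPM in DKO and 9.82 to 11.5 in WT. WT replicate 2 was the highest library for both.

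WT replicate 2 was also the highest for markers of Leydig cells, which make testosterone, of Sertoli cells, which nurse the germ cells, and of macrophages. The Leydig sum was 864.0 to 1521 TPM in DKO and 1499 to 3146 in WT, with 3 of 8 markers called, all lower. The Sertoli sum was 1531 to 1827 and 1944 to 2468 TPM, with 3 of 8 called, all lower, and 2 of 8 above 0. In CPM it was 1105 to 1265 in DKO and 1265 to 1545 in WT, so the groups met. The macrophage sum was 51.1 to 63.5 and 49.6 to 89.6 TPM, with 0 of 8 called by edgeR (3 at an unadjusted p under 0.05; no macrophage marker at 0 in all libraries). The spermatocyte sum went the other way in TPM, at 708.8 to 881.0 and 630.6 to 681.5, with 2 of 5 called, both higher. In CPM this sum overlapped, at 950.5 to 1194 in DKO and 892.9 to 975.8 in WT. Of the 5 markers, 2 had a log2 fold change below 0. The spermatid sum overlapped, at 104000 to 114000 and 96720 to 105700 TPM, with 0 of 5 called (0 at an unadjusted p under 0.05). Its direction was not the same in both units. In TPM the DKO mean was at 105.4% of WT, while 3 of the 5 genes had a log2 fold change below 0. The CPM sum was 15130 to 18900 in DKO and 16980 to 18850 in WT.

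Markers of surrounding tissues and of blood were also summed. The level of 7 skeletal muscle markers, which matter because Des is also a skeletal muscle gene, was 4.08 to 4.61 TPM in DKO and 3.84 to 5.44 in WT. For adipocytes the sum of 5 markers was 8.70 to 14.1 and 14.2 to 24.2 TPM, which is in the range of the endothelial sum or above it. The gap was narrow, at 14.14 TPM in DKO replicate 3 and 14.19 in WT replicate 2. In CPM these libraries were at 9.755 and 9.551, so the groups overlapped. Adipoq alone, the adipokine adiponectin, was at 8.74 TPM on average in DKO and 11.8 in WT. For the mesothelium of the capsule the sum of 4 was 2.39 to 3.58 and 3.50 to 4.76 TPM. Of 5 epididymal markers, Lcn5 and Lcn8 were listed at 0 in all 6 libraries, and the sum was 6.39 to 7.28 and 5.10 to 6.98 TPM, nearly all from Rnase10. Of 5 blood markers, Hbb-bs and Hba-a2 were listed at 0 in all libraries, and the sum was 20.3 to 37.8 and 21.5 to 24.6 TPM. Alas2, a heme synthesis gene, gave 17.1 to 22.9 TPM of it. DKO replicate 2 stood apart in Hba-a1, an alpha globin gene, at 19.6 TPM against 1.16 to 3.75 in the other 5 libraries. No gene of these 5 lists was called by edgeR, and 2, both adipocyte genes, had an unadjusted p under 0.05.

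**Figure D4:**
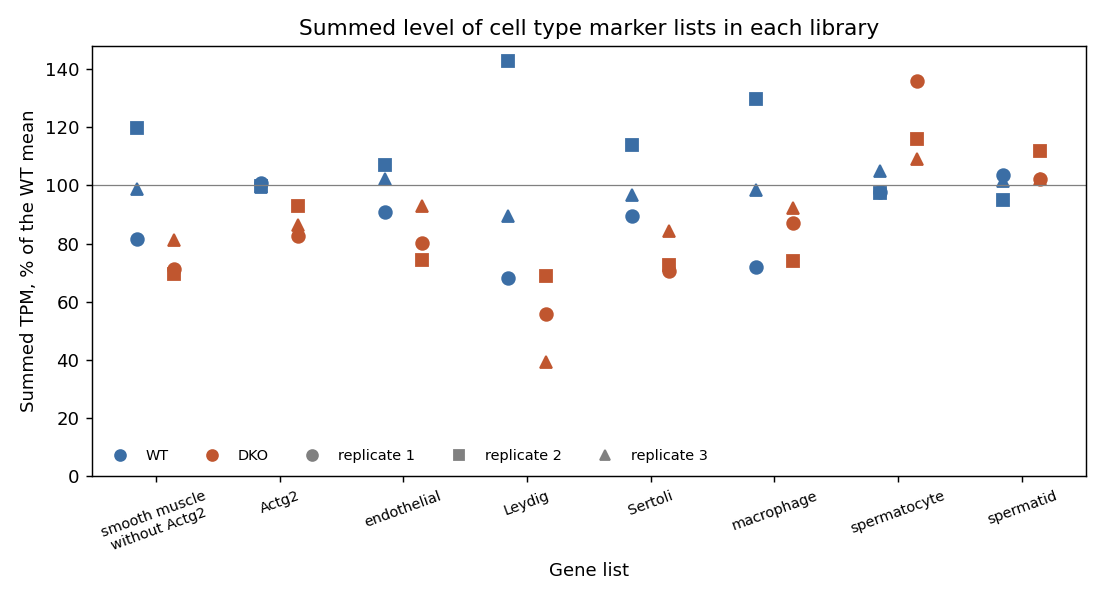
Summed TPM of each marker list per library, as a percentage of the mean of the 3 WT libraries (linear axis from 0; symbols give the replicate). WT replicate 2 is the highest library for smooth muscle without Actg2 (119.7%), endothelial (106.9%), Leydig (142.7%), Sertoli (113.7%) and macrophage (129.8%) markers, while Actg2 stays at 99.3 to 100.8% in WT libraries.

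To describe which genes shared the pattern, the mean of the 6 smooth muscle genes (log2 CPM centred per gene) was compared with 15069 other tested genes over the 6 libraries. The mean was -0.18, -0.15 and -0.09 in DKO replicates 1, 2 and 3 and -0.03, 0.30 and 0.15 in WT replicates 1, 2 and 3, so WT replicate 1 lay nearer the DKO libraries than the other WT libraries did. The most alike by Pearson's r were Tubb5 (0.998), Tpm2 (0.996), Itm2b (0.996), Snap47 (0.996) and Cdk2ap2 (0.994). For the 4 endothelial genes the mean was -0.08, -0.22 and 0.03 in DKO and -0.05, 0.13 and 0.19 in WT, and the most alike were Itgbl1 (0.986), Apol6 (0.986), Psma1 (0.985), Ctu1 (0.983) and Mthfd1 (0.982). These correlations share 6 libraries, their depth and their fragment lengths, and with so few points many genes reach high values. Within its own class mean, Actg2 had r of 0.46 where Acta2, Tagln and Myh11 had 0.98, 0.97 and 0.96, and Vwf had r of 0.02 where Pecam1 had 0.91, although each gene is part of its mean.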

How the data were processed

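RNA-seq of 6 whole testes was deposited as 1 gene table per library. Per the submitters' processing notes, STAR 2.7.0f, RSEM 1.2.31, DESeq2 1.12.3 and the mm10 build were used, with no role stated. Per the file headers, the authors' tables give RSEM expected counts (estimated fragments per gene; 93.2% whole), TPM and FPKM. The deposited TPM values are abundances per effective length, brought to a common sum per the file headers. The deposited FPKM values were not used. Filters and strand handling are not given in the sources used here.

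Expected counts were rounded, filtered with filterByExpr of edgeR 4.0.16 and scaled by TMM. The quasi-likelihood test was run on all 17110 tested genes with genotype as the only term, and p-values were adjusted by Benjamini-Hochberg. SE is the absolute log2 fold change over the square root of F. The biological coefficient of variation was 9.34%. Fragment length was taken per library from the gap between length and effective length (plus 1), as its median over genes above 3000 bases. Alternatives used DESeq2 1.42.0 and limma 3.58.1.

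The 10 genes, the lists and the naming rule (all members; from each context list the called genes, or else the 3 with the smallest p and the most abundant; the 5 genes most alike) were chosen with earlier results of these data known. Cald1, Clec14a, Sox17, Adipoq, Alas2, Hba-a1, Mkl1, Klf4, Myocd, Ptch1, Gli1, Tek, Vegfa and Pcsk7 were named for their roles, position or level after their values were seen. Cxcl12 was named for its p, also after its values were seen.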

Additional observations from a re-analysis of the deposited data

How the results depend on the processing

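Over 17 alternatives to each of the 10 fold changes (170 values), 150 kept direction and side of the threshold, 11 gained it, 4 (all Tagln) lost it and 5 changed sign. With fragment length as a covariate, 1 gene and 0 members were called, the member median was -0.0707, and Acta2, Des and Kdr reversed to 0.0743, 0.20 and 0.15; Tagln was at -0.36 (edgeR adjusted p = 0.999). Myh11 and Cdh5 kept their sign in that fit but came close to 0 (-0.0058 and -0.0601), and they count among the 150. The fragment length covariate does not overlap between the groups, and the cause was not tested. Leaving out 1 library gave Kdr values of -0.22 to 0.0886, reversed without DKO replicate 2 (0.0167) and WT replicate 3. Member calls were 2 (Tagln and Myh11) without a count filter, at a mean count of at least 50, with the effective-length offset and after thinning, and 3 (with Acta2) by DESeq2. Leaving out 1 library each gave 0 to 4 member calls and member medians of -0.33 to -0.21. Over all genes those fits gave 7 calls (without WT replicate 3) to 3029 (without DKO replicate 3). Calls over all genes were 1856, against 2923 by DESeq2, 735 and 947 by limma on log2(TPM + 1) and log2(TPM + 0.1), 7 at an adjusted p under 0.01 and 49 when a log2 fold change of 1 or more in size was also required. On the TPM scales 279 and 370 of the calls were higher, against 984. Apart from the fits with the covariate and those without DKO replicate 1, WT replicate 2 or WT replicate 3, Tagln passed in each fit run. In the main fit (log2 fold change -0.58, edgeR adjusted p = 0.0237) Tagln met neither of the 2 stricter thresholds, 0.01 and a size of 1. No paired analysis was possible because the replicate numbers are only the order of deposition and pair no libraries. Pecam1 and Kdr, with the fewest counts, had the widest SE (0.17).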
